A study of Mus musculus with 6 samples.

Results

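The transcripts described here are those of the respiratory chain and ATP synthase, the machinery of the inner mitochondrial membrane that turns electron flow into ATP. They were picked by symbol from the annotation of the array, with patterns for the Nduf, Sdh, Uqcr, Cyc, Cox and Atp5 names, and 84 symbols matched. Cox7a1 and Cox8b, isoforms typical of brown fat and muscle, were set apart by the rule. Atp5g2 had no transcript cluster whose probes match 1 transcript alone, so 81 genes of 27365 in the table remained. The rule uses no measured change: for each symbol, the brightest cluster over all 6 arrays among those with unique probes was kept.

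The cells were fully differentiated primary adipocytes of the mouse inguinal depot, a subcutaneous white fat. They received 50 µM kynurenic acid, a tryptophan breakdown product made from kynurenine, or PBS, each for 12 h. Each treatment had 3 Affymetrix MoGene 2.0 ST arrays, whose titles call the replicates technical. Every p-value, standard error and interval thus reflects array-to-array scatter that may be only technical. Strain, sex and the number of animals are not given in the sources used here. Values are RMA levels on the log2 scale, and a change is the kynurenic acid mean minus the PBS mean.

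Electrons from NADH enter the chain at complex I and those from succinate at complex II, and they pass through coenzyme Q to complex III, through cytochrome c to complex IV, and there to oxygen. Complexes I, III and IV pump protons out of the matrix, and complex V, the ATP synthase, lets them back to make ATP. White adipocytes use this chain for ATP and to sustain lipid synthesis, while brown and beige adipocytes, which hold more mitochondria, can uncouple it with Ucp1 to give heat. All complexes but complex II also contain subunits encoded in mitochondrial DNA, and dedicated assembly factors put the parts together.

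The labelled cell type was checked against its markers. All 9 measured adipocyte markers, among them Adipoq and Fabp4, were brighter than the antigenomic background probe sets, which are designed to match no mouse sequence, on every array. Of 6 brown and beige adipocyte markers, Ucp1 and Cidea were below that background on all 6 arrays. Cox7a1, Cox8b and Elovl3 were above it on all 6, and Dio2 on 1. Elovl3 averaged 8.29 ± 0.27 with kynurenic acid and 8.17 ± 0.28 with PBS (SD, n = 3 each). Macrophage markers were also present, with 5 of 5 measured genes above background on every array. Their summed intensity was 2610 to 3140 in kynurenic acid arrays and 2650 to 2910 in PBS arrays, against 16800 to 17600 and 17100 to 17800 for the adipocyte markers. Endothelial markers summed to 106 to 108 in kynurenic acid arrays and 89.1 to 92.1 in PBS arrays, the sum of brown and beige markers was 979 to 1170 and 866 to 1020, and the preadipocyte, muscle and erythroid sums overlapped between treatments. Most of the endothelial gap was Cdh5, a cadherin of endothelial junctions, with 5.69, 5.55 and 5.54 in kynurenic acid arrays and 4.99, 5.09 and 5.17 in PBS arrays (0.51 ± 0.085, SE; adjusted p = 0.472 by limma). Of the other 4 endothelial genes Tek and Tie1 lay below 0, at -0.093 and -0.043, and 2 of the 5 were above background on every array; these names were chosen after their values were seen. The part of these cell types in the results was not tested. In such bulk RNA, fewer cells of a type and less RNA per cell cannot be told apart.

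Respiratory chain and ATP synthase transcripts differed little between the treatments. Over the 81 genes the median log2 change was 0.04, with 51 above 0, 29 below 0 and 1 at 0 (60 above 0 after cyclic loess between arrays and 44 after centring arrays on their medians), and the changes ran from -0.50 for Atp5h to 0.28 for Cox5b. Across all 27365 genes tested the median was 0.0067 and 51.8% lay above 0. For the 78 of the 81 genes brighter than background the median was 0.03, and 61.5% lay above 0. Over all 16787 genes brighter than background the median was -0.017, and 44.7% lay above 0. None of the 81 passed the limma test after Benjamini-Hochberg adjustment over all genes, nor did any other gene (0 of 27365, 0.0%). The smallest adjusted p among the 81 was 0.472, for Atp5s, and 0 of the 81 differed by 1.5-fold.

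The intervals reflect array-to-array scatter, which may be only technical, so they may not cover variation between cultures or animals. For 78 of the 81 genes (96.3%) the 95% interval of the change stayed within 1.5-fold in either direction, a share of 95.4% among all genes. The exceptions were Atp5h, Atp5s and Cox5b. In the median gene the interval extended 0.20 log2 on each side of the estimate. In 76 of the 81 genes all 6 arrays read above the antigenomic mean. Cox7b2 and Cox8c, isoforms known mainly from testis, read below it on every array.

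**Figure D1:**
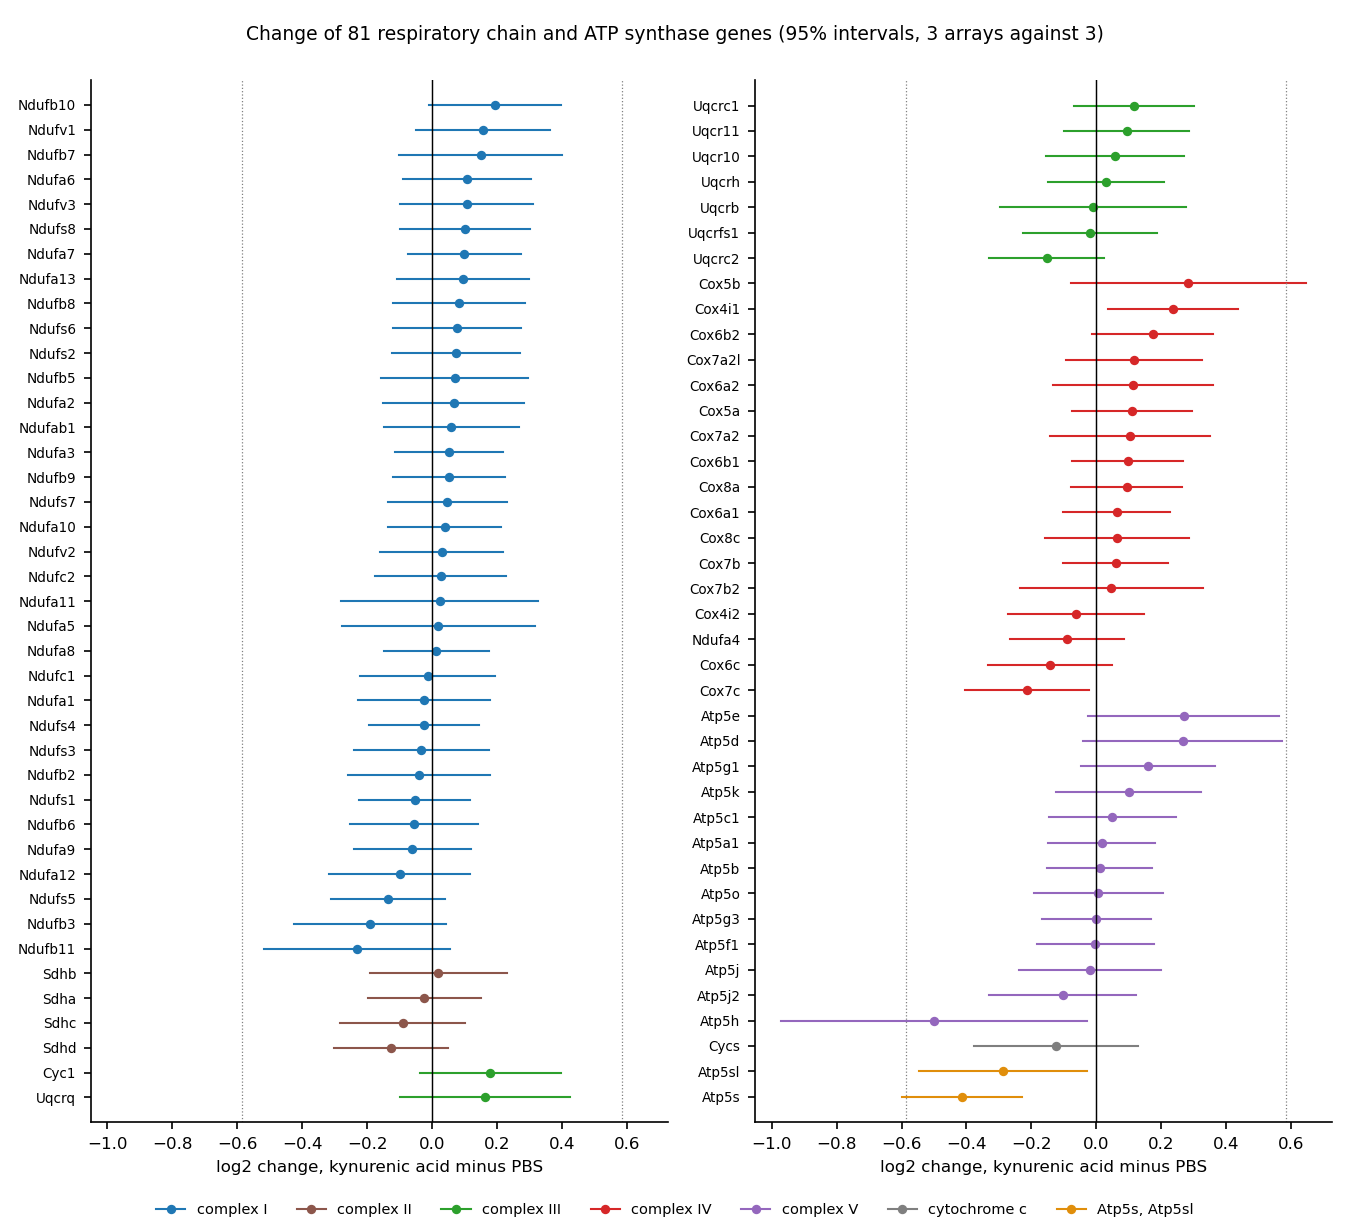
Log2 change (kynurenic acid minus PBS, horizontal axis) of the 81 genes, grouped by complex and coloured as in the legend, with points for the limma estimate, bars for its 95% interval and dotted lines at 1.5-fold in each direction. Most points lie within 0.2 log2 of 0, Atp5h and Atp5s lie lowest at -0.50 and -0.41, and 3 intervals cross a dotted line.

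At an unadjusted limma p below 0.05, 1 gene was higher with kynurenic acid, Cox4i1, and 4 were lower, Atp5s, Atp5sl, Cox7c and Atp5h. That is 6.17% of the 81 genes, and among all genes tested 9.69% were below this p (4.69% higher, 5.0% lower). The order of these shares depended on the fit: they were 14.8% of the 81 genes and 10.5% of all genes with an intensity trend, and 9.88% and 8.83% after cyclic loess. Among genes brighter than background, the shares in the main fit were 6.41% of 78 and 11.3% of 16787. Single arrays moved the counts of higher and lower genes. Without kynurenic acid array 1 there were 4 higher and 2 lower (7.41% of the 81 genes, 7.62% of all genes). Without PBS array 3 there were likewise 4 and 2 (7.41% and 9.14%). Without kynurenic acid array 2 the counts were 2 and 2 (4.94% and 13.0%), and without kynurenic acid array 3 0 and 3 (3.7% and 6.98%). Without PBS array 1 they were 2 and 1 (3.7% and 7.25%), and without PBS array 2 0 and 4 (4.94% and 7.1%).

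The arrays of both treatments were free of overlap in 11 of the 81 genes (13.6%), against 14.7% of all genes. In 6 of them every kynurenic acid array was above every PBS array (background 7.14%): Ndufa7, Cyc1, Cox7b, Cox8a, Cox6b2 and Cox4i1. In 5 every kynurenic acid array was below every PBS array (background 7.58%): Ndufs5, Sdhd, Uqcrc2, Cox7c and Atp5s. Ndufa7 and Ndufs5 are named to complete these lists, a choice made with their values in view.

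Complex I, the NADH dehydrogenase, is the largest of the complexes and had 35 measured nuclear genes. Their median change was 0.04, with 23 above 0 and 12 below, and 0 had an unadjusted p below 0.05. The 7 core subunits, among them those that hold the flavin and the iron-sulphur clusters, had a median of 0.047 and ran from -0.053 to 0.16. The 28 supernumerary subunits, which surround and stabilise the core, had a median of 0.033.

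Ndufv1, the subunit that binds NADH and the flavin, read 8.86, 9.01 and 9.06 in kynurenic acid arrays and 8.93, 8.71 and 8.82 in PBS arrays, a change of 0.16 ± 0.091 (SE). The lowest kynurenic acid array lay inside the PBS range. Ndufs1, the large iron-sulphur subunit next to it in the electron path, measured 9.01 ± 0.035 with kynurenic acid and 9.06 ± 0.066 with PBS (SD, n = 3 each). The change of Ndufs1 was -0.053, and its arrays overlapped.

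Among the supernumerary subunits, Ndufb10 had the change farthest above 0, with 7.42, 7.54 and 7.66 in kynurenic acid arrays and 7.29, 7.31 and 7.44 in PBS arrays (0.19 ± 0.090, SE). Only the lowest kynurenic acid array and the highest PBS array crossed. On the other side, Ndufb11, an X-linked membrane-arm subunit, read 3.95, 4.09 and 4.14 in kynurenic acid arrays and 4.49, 4.0 and 4.38 in PBS arrays (-0.23 ± 0.13, SE), with overlap and close to background. Ndufb3, another membrane-arm subunit, read 7.54, 7.89 and 7.82 in kynurenic acid arrays and 7.86, 7.97 and 7.99 in PBS arrays (-0.19 ± 0.10, SE). Only kynurenic acid array 2 reached into the PBS range of Ndufb3, and without kynurenic acid array 1 its change was -0.085.

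Complex II, succinate dehydrogenase, sits in both the TCA cycle and the respiratory chain and is encoded wholly in the nucleus. Its 4 genes had a median change of -0.057, and none had an unadjusted p below 0.05. The catalytic subunits were close to 0: Sdha, which binds the flavin, averaged 10.97 ± 0.042 with kynurenic acid and 10.99 ± 0.072 with PBS, and Sdhb, which holds the iron-sulphur clusters, averaged 8.93 ± 0.059 and 8.91 ± 0.15 (SD, n = 3 each). Both membrane anchors were below 0. Sdhd read 9.49, 9.55 and 9.59 in kynurenic acid arrays and 9.74, 9.66 and 9.61 in PBS arrays (-0.13 ± 0.077, SE), without overlap but with 0.02 between the nearest arrays. Sdhc, the other anchor, read 8.59, 8.81 and 8.71 in kynurenic acid arrays and 8.74, 8.85 and 8.79 in PBS arrays (-0.090 ± 0.085, SE), with overlap. Without kynurenic acid array 1 the median of the 4 genes was -0.017.

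Complex III, the cytochrome bc1 complex, had 9 measured nuclear genes with a median change of 0.057, from -0.15 to 0.18, and none had an unadjusted p below 0.05. Cyc1, the cytochrome c1 that hands electrons on to cytochrome c, read 9.06, 9.13 and 9.23 in kynurenic acid arrays and 9.04, 8.79 and 9.05 in PBS arrays (0.18 ± 0.096, SE). The nearest arrays of Cyc1 were 0.01 apart. Uqcrfs1, the Rieske iron-sulphur protein, averaged 6.78 ± 0.14 with kynurenic acid and 6.80 ± 0.053 with PBS (SD, n = 3 each).

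The core proteins of complex III lay on opposite sides of 0. Uqcrc2 read 10.48, 10.60 and 10.52 in kynurenic acid arrays and 10.66, 10.76 and 10.64 in PBS arrays, a change of -0.15 ± 0.078 (SE). All 3 kynurenic acid arrays were below all 3 PBS arrays. Its partner Uqcrc1 had a log2 change of 0.12, named for this contrast with its value in view. Uqcrq, a small membrane subunit, read 6.26, 6.33 and 6.48 in kynurenic acid arrays and 6.24, 5.96 and 6.38 in PBS arrays (0.16 ± 0.12, SE), with overlap.

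Cycs, the soluble cytochrome c that shuttles electrons between complexes III and IV, read 9.71, 10.12 and 9.93 in kynurenic acid arrays and 9.94, 10.12 and 10.07 in PBS arrays. Its change was -0.12 ± 0.11 (SE), and the arrays overlapped. The kept cluster is annotated at a copy of the gene on chromosome 19 (mm10, 24876264 to 24876871), and a cluster on the Cycs gene itself on chromosome 6 held the same value on every array. A second cluster on the gene itself, of 36 probes, had a log2 change of -0.013, and a chromosome 19 cluster with probes shared by further transcripts had 0.09. Without kynurenic acid array 1 the change of the kept cluster was -0.018.

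Complex IV, cytochrome c oxidase, had 17 measured nuclear genes, Ndufa4 and the supercomplex factor Cox7a2l included. Their median change was 0.093, with 13 above 0 and 4 below. Cox4i1 was the only gene of the 81 that was higher at an unadjusted p below 0.05. It encodes the widely expressed form of subunit 4, through which ATP regulates the enzyme. It read 10.26, 10.26 and 10.43 in kynurenic acid arrays and 10.12, 9.97 and 10.15 in PBS arrays (chromosome 8, mm10, 120668290 to 120674209). All kynurenic acid arrays were above all PBS arrays. The change was 0.24 ± 0.088 (SE), a fold of 1.18, with a limma p of 0.0249 and an adjusted p of 0.492. Cox4i2, its isoform known from lung, averaged 5.03 ± 0.12 with kynurenic acid and 5.09 ± 0.10 with PBS (SD, n = 3 each).

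Cox7c, a small membrane-spanning subunit, was lower at an unadjusted p below 0.05. It read 5.02, 5.10 and 5.19 in kynurenic acid arrays and 5.31, 5.23 and 5.41 in PBS arrays (chromosome 13, mm10, 86044798 to 86046904). Every kynurenic acid array was below every PBS array. The change was -0.21 ± 0.085 (SE), with a limma p of 0.0334 and an adjusted p of 0.499. Cox5b, a zinc-binding subunit, overlapped between treatments: 4.08, 4.07 and 4.38 with kynurenic acid and 4.24, 3.58 and 3.86 with PBS (0.28 ± 0.16, SE). PBS array 2 read at the antigenomic mean of that array, 3.58, and without it the change of Cox5b was 0.13.

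The remaining widely expressed isoforms lay closer to 0. Cox6a1 averaged 12.53 ± 0.036 with kynurenic acid and 12.47 ± 0.029 with PBS, Cox6b1 10.05 ± 0.021 and 9.95 ± 0.070, and Cox8a 11.03 ± 0.042 and 10.94 ± 0.056 (SD, n = 3 each). These are parts of the nuclear-encoded shell of the enzyme. Cox7a2 averaged 9.59 ± 0.080 with kynurenic acid and 9.49 ± 0.20 with PBS, and Cox7a2l, which helps join complexes III and IV, 6.25 ± 0.15 and 6.13 ± 0.046 (SD, n = 3 each). Of these, Cox8a arrays did not overlap, at 11.00, 11.02 and 11.08 with kynurenic acid and 10.95, 10.88 and 10.99 with PBS.

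Of the 5 isoforms known mainly from other tissues, 0 had an unadjusted p below 0.05. Cox6a2, the heart and muscle form, averaged 5.34 ± 0.11 with kynurenic acid and 5.22 ± 0.19 with PBS (SD, n = 3 each). Cox6b2, a testis form, read 3.73, 3.76 and 3.93 in kynurenic acid arrays and 3.63, 3.66 and 3.61 in PBS arrays, without overlap. It was above the antigenomic mean on 2 of 6 arrays. That mean was itself 3.76 to 3.91 on kynurenic acid arrays and 3.58 to 3.76 on PBS arrays, and its part in the Cox6b2 difference was not tested. Cox7b2 averaged 2.35 ± 0.25 with kynurenic acid and 2.31 ± 0.10 with PBS, and Cox8c 2.67 ± 0.084 and 2.61 ± 0.16 (SD, n = 3 each), all below background.

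Cox7a1 and Cox8b, which the rule kept apart and which mark brown and beige fat, are set beside these. Cox7a1 averaged 9.46 ± 0.10 with kynurenic acid and 9.24 ± 0.075 with PBS (0.22 ± 0.086, SE; adjusted p = 0.495 by limma). Cox8b averaged 5.38 ± 0.13 with kynurenic acid and 5.11 ± 0.20 with PBS (0.27 ± 0.12, SE; adjusted p = 0.512 by limma). The unadjusted limma p was 0.0285 for Cox7a1 and 0.0454 for Cox8b, and neither gene passed the test after adjustment. For Cox7a1 all kynurenic acid arrays (9.35, 9.49 and 9.55) were above all PBS arrays (9.25, 9.16 and 9.31). The arrays of Cox8b overlapped.

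Complex V, the ATP synthase, had 13 measured nuclear genes with a median change of 0.01, 8 above 0, 4 below and 1 at 0, and the median was -0.013 after centring arrays on their medians. In the F1 head, which makes ATP, all 5 genes lay above 0, with a median of 0.05, but Atp5a1 and Atp5b were at -0.0067 and -0.013 after that centring. Its catalytic core was nearly equal in both treatments: Atp5a1, the alpha subunit, averaged 11.26 ± 0.035 with kynurenic acid and 11.24 ± 0.026 with PBS, and Atp5b, the catalytic beta subunit, 12.11 ± 0.015 and 12.10 ± 0.012 (SD, n = 3 each). For Atp5b the 95% interval ran from -0.15 to 0.17, the narrowest of the 81.

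The small subunits of the central stalk had wider intervals. Atp5e, the epsilon subunit, read 7.82, 7.56 and 8.04 in kynurenic acid arrays and 7.48, 7.42 and 7.71 in PBS arrays (0.27 ± 0.13, SE). Atp5d, the delta subunit, read 9.24, 9.22 and 9.44 in kynurenic acid arrays and 9.10, 8.73 and 9.27 in PBS arrays (0.27 ± 0.14, SE). Both overlapped between treatments. The membrane ring of c subunits turns the stalk: Atp5g3, one of several genes for the same c subunit, averaged 8.80 with each treatment, and Atp5g1 averaged 4.74 ± 0.13 with kynurenic acid and 4.58 ± 0.072 with PBS (SD, n = 3 each).

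Atp5h, subunit d of the peripheral stalk that holds the head still, had the change farthest from 0 of all 81 genes. It read 4.72, 4.11 and 4.0 in kynurenic acid arrays and 4.90, 5.03 and 4.40 in PBS arrays (chromosome 11, mm10, 115415689 to 115419962). Kynurenic acid arrays 2 and 3 were close to background, with antigenomic means of 3.76 and 3.91. The treatments overlapped, since kynurenic acid array 1 was above PBS array 3. The change was -0.50 ± 0.21 (SE), with a limma p of 0.0397 and an adjusted p of 0.507. The other 3 stalk genes lay between -0.020 and 0.0067. Atp5j2, the f subunit in the membrane, averaged 4.34 ± 0.15 with kynurenic acid and 4.44 ± 0.11 with PBS (SD, n = 3 each).

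Atp5s and Atp5sl carry Atp5 names without being structural subunits. Atp5s encodes coupling factor B, and Atp5sl a related protein known from assembly of the membrane arm of complex I. Atp5s read 5.53, 5.65 and 5.61 in kynurenic acid arrays and 6.01, 6.10 and 5.92 in PBS arrays (chromosome 12, mm10, 69724962 to 69744658). Every kynurenic acid array was below every PBS array, with 0.27 between the nearest. The change was -0.41 ± 0.082 (SE), a fold of 1.33 downward, with a limma p of 0.00069 and an adjusted p of 0.472. In the authors' deposited table the p-value of Atp5s is 0.00347 and its q-value 0.522.

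Atp5sl read 5.02, 5.26 and 5.38 in kynurenic acid arrays and 5.57, 5.34 and 5.61 in PBS arrays (chromosome 7, mm10, 25619414 to 25625551). Kynurenic acid array 3 was above PBS array 2, so the treatments overlapped. The change was -0.29 ± 0.11 (SE), with a limma p of 0.0332 and an adjusted p of 0.499. Without these 2 genes, the 79 genes of the chain and the synthase had a median of 0.047, and at an unadjusted p below 0.05 1 was higher and 2 were lower. That is 3.8% of the 79 genes, against 9.69% of all genes tested.

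**Figure D2:**
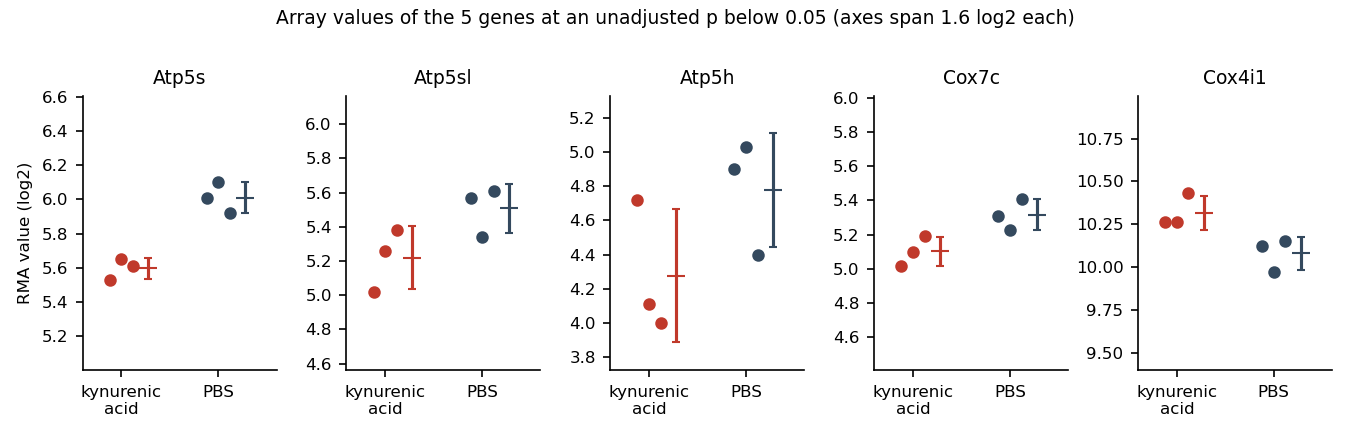
RMA values (log2, vertical axes, all of the same span) on the 3 kynurenic acid arrays (red) and the 3 PBS arrays (dark blue) for the 5 genes with an unadjusted p below 0.05; horizontal ticks are means and bars SD. Atp5s, Cox7c and Cox4i1 do not overlap between treatments, while Atp5sl and Atp5h do.

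The arrays of a treatment differed among themselves by more than the median change. As deviations from each gene's mean over 6 arrays, the medians of the 81 genes were -0.037, 0.042 and 0.057 on kynurenic acid arrays 1, 2 and 3, and -0.018, -0.048 and 0.03 on PBS arrays 1, 2 and 3. The medians of both treatments thus overlapped. Other changes also moved with 1 array: without kynurenic acid array 1 that of Cox6c was -0.082 and that of Atp5sl -0.19, and without PBS array 2 that of Atp5d was 0.12, that of Ndufv1 0.10, that of Cyc1 0.095 and that of Uqcrq 0.047. Without kynurenic acid array 3 the change of Atp5e was 0.15 and that of Cox6b2 0.11, without kynurenic acid array 2 that of Atp5g1 was 0.088, and without PBS array 1 that of Ndufb11 was -0.13. Kynurenic acid array 1 was the lowest of all 6 arrays for 30 of the 81 genes (37.0%), against 17% of all genes, and kynurenic acid array 3 was the highest for 33 (40.7%), against 19.9%. Without kynurenic acid array 1 the median change of the 81 genes was 0.073, with 59 above 0.

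The lowest array differed between complexes. On kynurenic acid array 1 the median deviation was -0.063 over complex I, -0.0875 over complex II and -0.078 over complex III, but 0.012 over complex V. On PBS array 2 it was -0.088 over complex III and -0.065 over complex IV. In complex IV, kynurenic acid array 3 was the highest array for 11 of 17 genes. PBS array 2 held the lowest value of 6 of the 13 complex V genes.

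**Figure D3:**
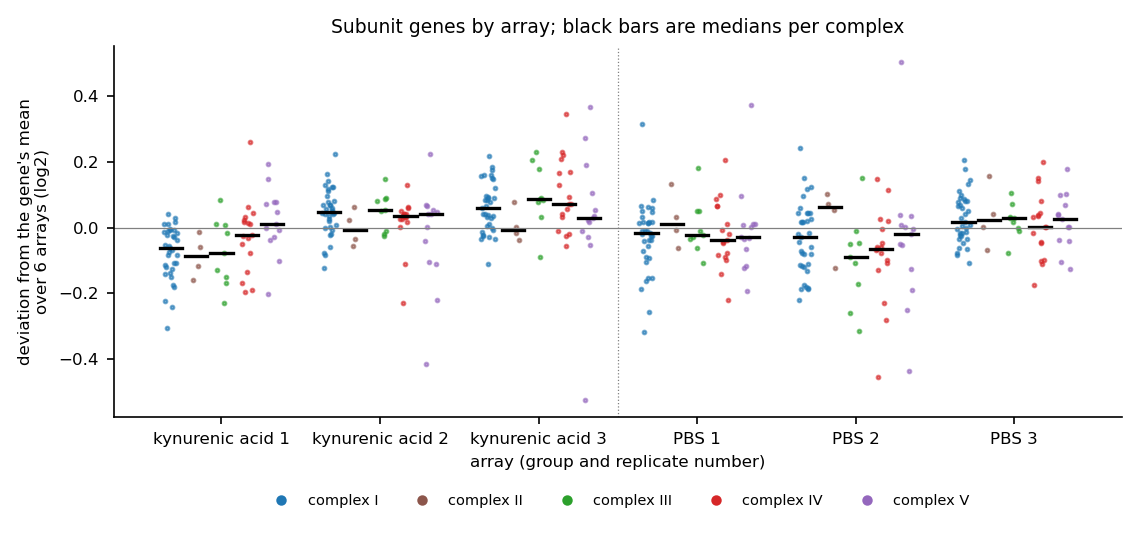
Deviation of each subunit gene from its own mean over the 6 arrays (log2, vertical axis) on each array (horizontal axis, kynurenic acid left of PBS), coloured by complex, with black bars for the median of each complex. Kynurenic acid array 1 lies below 0 for complexes I to IV and kynurenic acid array 3 above 0 for all but complex II, while the median change between treatments is 0.04.

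Several of these genes have processed copies elsewhere in the genome or antisense transcripts, and the array holds 95 clusters under the 81 symbols. For 4 genes the kept cluster is not annotated on the gene's own locus and strand: Atp5d, Cox6c, Cox7b and Cycs. The cluster on the gene's own locus gave another sign for Cox6c, 0.14 in place of -0.14, and for Cox7b, -0.037 in place of 0.06. Cox6c averaged 10.52 ± 0.12 with kynurenic acid and 10.67 ± 0.040 with PBS on the kept cluster of chromosome 12, and 5.62 ± 0.10 and 5.48 ± 0.047 on its own locus on chromosome 15 (SD, n = 3 each). Cox7b read 9.95, 9.95 and 9.99 in kynurenic acid arrays and 9.89, 9.93 and 9.89 in PBS arrays on the kept cluster, without overlap.

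The clusters of a gene also gave log2 changes of different size. For Atp5d the kept cluster is annotated on the opposite strand (chromosome 10, mm10, 80145218 to 80145811), and the cluster on the gene's strand had a log2 change of 0.063, against 0.27. For Atp5h a brighter cluster averaged 10.93 with kynurenic acid and 11.02 with PBS, and its probes also match other transcripts. Its log2 change was -0.097, against -0.50 for the kept cluster. For Ndufs5, an intermembrane-space subunit of complex I, such a cluster had a log2 change of -0.35 ± 0.13 (SE), against -0.14 ± 0.078 (SE) for the kept one. Ndufs5 was close to background on the kept cluster, at 3.94, 3.79 and 3.80 in kynurenic acid arrays and 3.97, 3.97 and 4.0 in PBS arrays. For Ndufb3 a cluster whose probes also match other transcripts had a log2 change of -0.23 ± 0.091 (SE), without overlap between treatments. The kept Ndufb3 cluster had -0.19. For Atp5e a dimmer cluster on the opposite strand had a log2 change of 0.04, against 0.27 for the kept one. The 2 clusters of Atp5g2, the c-ring gene left out by the rule, had log2 changes of 0.01 and 0.087. Signal of copies and parent genes cannot be told apart where probes match both.

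**Figure D4:**
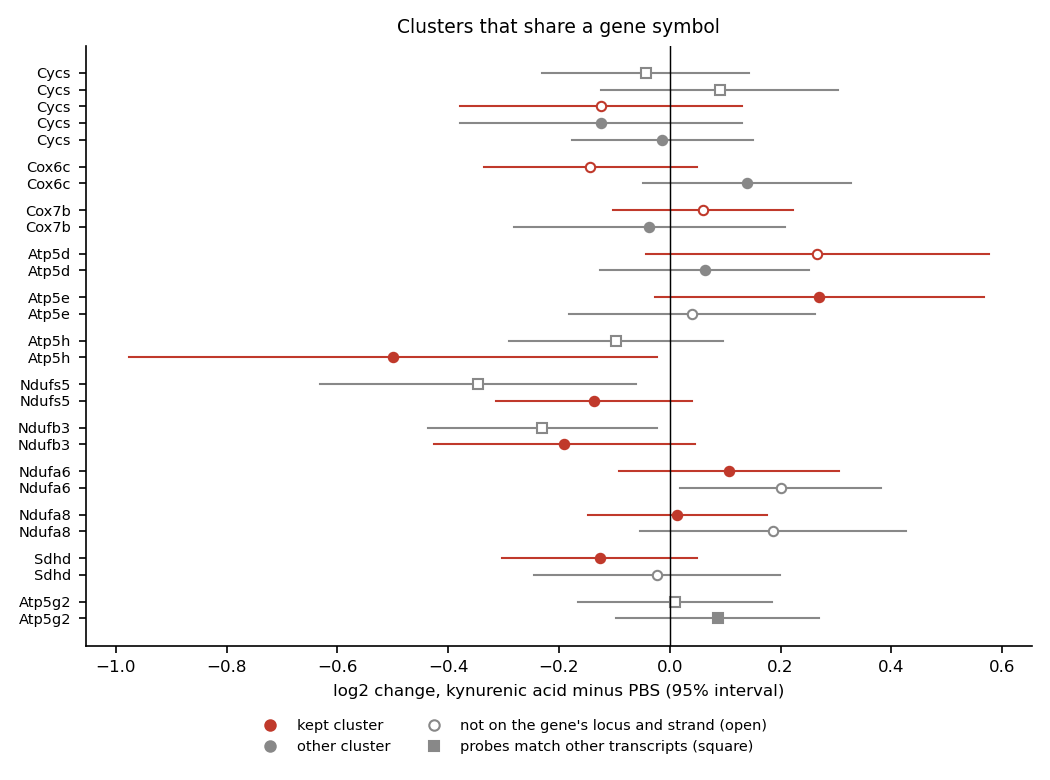
Log2 change (kynurenic acid minus PBS, horizontal axis) with 95% interval for every cluster of the symbols that have more than 1, with the kept cluster in red, others in grey, open marks for clusters off the gene's locus or strand and squares for clusters whose probes match other transcripts. Cox6c and Cox7b lie on opposite sides of 0 between their clusters, and the kept Atp5h cluster at -0.50 lies apart from its other cluster at -0.097.

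The subunits encoded in mitochondrial DNA, which are translated inside the organelle, were also near 0. Of 13 such genes 12 were measured, 3 of them by clusters whose probes match other transcripts too, with a median change of -0.015 and a range from -0.043 to 0.11, and 0 had an unadjusted p below 0.05. Except for ND6, their group means were 11.97 to 12.93, and the highest value on an array was 13.08 to 13.18. Whether signal this close to the top of the scale can show a change was not tested. ND6, the complex I subunit encoded on the light strand, had the smallest p of this list and averaged 10.39 ± 0.12 with kynurenic acid and 10.28 ± 0.26 with PBS (SD, n = 3 each).

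Assembly factors, which are not part of the finished complexes, lay mostly below 0. Over 50 measured genes, 49 assembly factors of complexes I to V and the ATP synthase inhibitor Atpif1, the median change was -0.095, with 37 below 0 and 13 above. None passed the limma test after adjustment over all genes. At an unadjusted p below 0.05 there were 5 lower (10%) and 0 higher, and 10 (20%) had every kynurenic acid array below every PBS array, with 0 the other way. Among the 16787 genes brighter than background the median was -0.017, 44.7% lay above 0, 7.04% were lower at this p, and 10.4% had every kynurenic acid array below every PBS array. In the other direction, 4.22% were higher at this p and 6.55% had every kynurenic acid array above every PBS array. Without Atpif1, 36 of 49 lay below 0, 4 were lower at this p and 9 lay below without overlap. With single arrays left out the median of the 50 genes ran from -0.14 to -0.051, and that of the 81 genes from 0.022 to 0.073. After cyclic loess the median of the 50 genes was -0.059, with 33 below 0. After centring arrays on their medians it was -0.12, with 39 below 0. Whether the lists differ from each other was not tested.

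By complex, 13 of 14 complex I assembly genes lay below 0, with a median of -0.11, and 14 of 22 for complex IV, with a median of -0.068. Ndufaf7, a methyltransferase that acts early in complex I assembly, read 6.98, 7.20 and 7.11 in kynurenic acid arrays and 7.38, 7.33 and 7.22 in PBS arrays (-0.21 ± 0.088, SE; adjusted p = 0.506 by limma). Cmc1, which stabilises a newly made complex IV core subunit, read 6.10, 6.26 and 6.08 in kynurenic acid arrays and 6.51, 6.56 and 6.28 in PBS arrays (-0.30 ± 0.098, SE; adjusted p = 0.475 by limma). Neither gene overlapped between treatments, although the nearest arrays of each were 0.02 apart.

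For complex III the 6 assembly genes had a median of -0.125, and Uqcc, now Uqcc1, a factor for cytochrome b synthesis, averaged 6.56 ± 0.21 with kynurenic acid and 6.81 ± 0.074 with PBS (SD, n = 3 each; adjusted p = 0.514 by limma). For complex II the 4 genes had a median of -0.027, and Sdhaf4, listed as 1110058L19Rik, averaged 5.30 ± 0.10 with kynurenic acid and 5.49 ± 0.026 with PBS (adjusted p = 0.509 by limma). For complex V all 4 genes, 3 assembly factors and Atpif1, lay below 0. Atpif1, the inhibitor that keeps the ATP synthase from running backwards, read 8.60, 8.70 and 8.62 in kynurenic acid arrays and 8.81, 8.87 and 8.88 in PBS arrays (-0.21 ± 0.075, SE; adjusted p = 0.475 by limma). Atpif1 did not overlap between treatments.

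The 11 measured coenzyme Q synthesis genes had a median of -0.043, and Coq2, which joins the ring to its tail, averaged 5.80 ± 0.060 with kynurenic acid and 5.59 ± 0.17 with PBS (SD, n = 3 each). The 11 regulators of respiratory gene transcription had a median of 0.013. Of these, 1 was higher and 1 lower with an unadjusted p below 0.05 (18.2%, against 9.69% of all genes). Ppargc1b, the coactivator PGC-1 beta, read 5.83, 6.03 and 6.17 in kynurenic acid arrays and 5.61, 5.86 and 5.69 in PBS arrays (0.29 ± 0.11, SE; adjusted p = 0.492 by limma). The lower one was Esrra, the nuclear receptor ERR alpha, with a change of -0.31, named after its value was seen. Esrra averaged 6.38 ± 0.21 with kynurenic acid and 6.69 ± 0.12 with PBS (SD, n = 3 each).

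**Figure D5:**
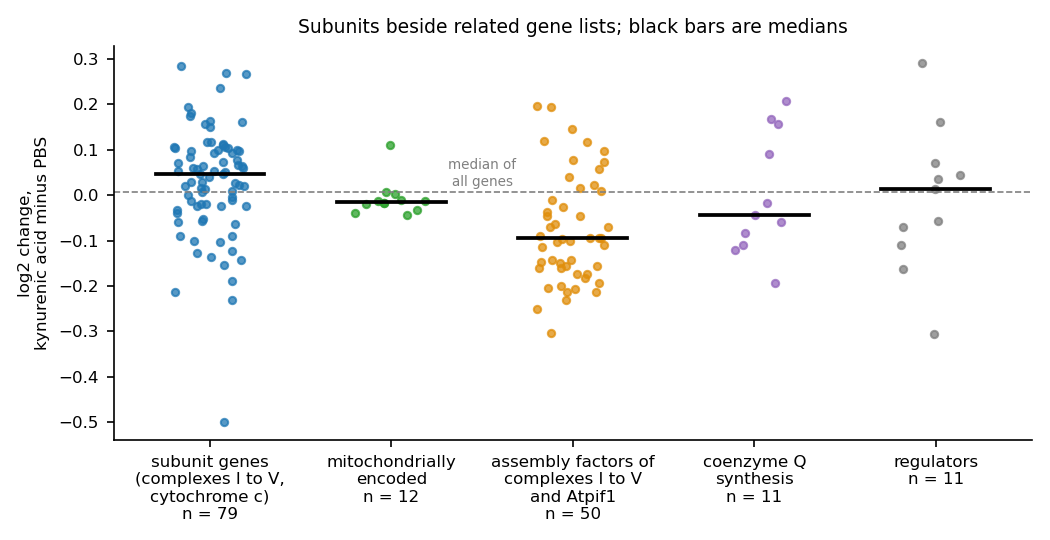
Log2 change (kynurenic acid minus PBS, vertical axis) of each gene in 5 lists (horizontal axis), with black bars for the medians and a dashed line for the median of all genes at 0.0067. The assembly factors with Atpif1 have a median of -0.095, with 37 of 50 below 0, and the 79 subunit and cytochrome c genes a median of 0.047.

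Nuclear subunit genes are known to share promoter motifs for NRF1, for ETS factors such as GABP, for YY1 and for ERR receptors, and these were counted in the window from 250 bases before to 50 after each start in the RefSeq table of GRCm38.p6. A window was matched for 66 of the 81 genes, with a median GC content of 57.3%, against 52.7% over all 27025 windows. Some windows, among them those of Atp5d and Atp5g3, lie at a start inside the gene's annotated span. On both strands, the NRF1 string (GCGCA, any base, GCGC) was in 14 of the 66 windows (21.2%), against 4.82% of all windows and 9.28% of the 11009 windows of other coding genes brighter than background. CCGGAAG (ETS) was in 14 (21.2%), against 9.14% and 16.5%. AANATGGCG (YY1) was in 9 (13.6%), against 2.5% and 4.61%, and TCAAGGTCA (ERR) in 2 (3.03%), against 0.407% and 0.282%. Of the general motifs, CCAAT was in 43.9%, against 38.0% and 38.4%, GGGCGG (SP1) in 42.4%, against 35.9% and 61.4%, and TATAAA in 7.58%, against 14.2% and 8.05%. Differences between these shares were not tested. None of these strings contains another. A match is a description of the letters and does not show that a factor binds.

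The 5 stretches below are the 120 bases just before a RefSeq start of named genes, where these hold a match and no other annotated gene. For Atp5g3 that start lies inside the gene's annotated span (73908447 to 73912464), so the stretch lies within the gene. The stretches are shown to let the motifs of a gene near 0 be read beside those of genes farther from it. All lie on the minus strand and are written 5′ to 3′ along the gene, with capitals on the motif, CTTCCGG being the ETS string on the opposite strand, TGACCTTGA the ERR string on the opposite strand and GCGCAGGCGC an NRF1 match. The changes of these genes were -0.50 for Atp5h, 0.27 for Atp5e, 0.063 for Cox6a1, 0.097 for Cox6b1 and 0 for Atp5g3. A relation between motif and change was not tested.
Atp5h, chr11:115419920-115420039: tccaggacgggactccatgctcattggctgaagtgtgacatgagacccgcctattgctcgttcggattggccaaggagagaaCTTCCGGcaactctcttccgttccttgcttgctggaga
Atp5e, chr2:174464102-174464221: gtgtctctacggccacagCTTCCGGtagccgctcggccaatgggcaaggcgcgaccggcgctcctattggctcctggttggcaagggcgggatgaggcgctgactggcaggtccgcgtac
Cox6a1, chr5:115348959-115349078: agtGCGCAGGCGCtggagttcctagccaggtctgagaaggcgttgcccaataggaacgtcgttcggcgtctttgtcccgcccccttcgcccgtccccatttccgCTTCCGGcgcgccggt
Cox6b1, chr7:30626115-30626234: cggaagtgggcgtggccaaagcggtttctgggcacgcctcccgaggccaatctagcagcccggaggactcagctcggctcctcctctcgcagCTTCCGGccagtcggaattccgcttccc
Atp5g3, chr2:73911327-73911446: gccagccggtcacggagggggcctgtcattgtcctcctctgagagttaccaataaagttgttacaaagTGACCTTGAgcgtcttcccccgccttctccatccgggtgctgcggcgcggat

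Counted from the start, the ETS string began 38 bases upstream in Atp5h, 102 in Atp5e, 16 in Cox6a1 and 28 in Cox6b1. The NRF1 match of Cox6a1 began 117 bases upstream. The ERR string of Atp5g3 began 52 bases upstream of a start inside the gene's span. The windows hold further NRF1 matches outside the printed stretches. Relative to the start, these began at -141 in Atp5h, -162 in Cox6a1 and 13 in Atp5g3. Of these 5 genes, Atp5h alone had an unadjusted p below 0.05.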

How the data were processed

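RNA of cultured mouse inguinal adipocytes was measured on 6 Affymetrix MoGene 2.0 ST arrays, 3 per treatment, grouped by their titles. The authors' deposited log2 values were made with RMA, per the file headers, a method of background correction, quantile normalisation of probe intensity across arrays and median polish per transcript cluster; the submitters' processing notes name Affymetrix Expression Console 1.41. Quantile normalisation hides any shift shared by most transcripts. The annotation is NetAffx build 34 on mm10, per the file headers. The authors' deposited table also holds group means as linear intensity, a signed fold change, and a p-value and q-value based on a t-test, used here only where named; both deposited tables hold the same log2 values. No scan batch is given in the sources used here.

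For each of 27365 symbols 1 of 29726 annotated clusters was kept, the brightest whose probes match 1 transcript alone, or for 1751 symbols without such a cluster the brightest of all. The comparison of kynurenic acid with PBS used limma 3.58.1 in R 4.3.3 (lmFit and eBayes, two-sided), with Benjamini-Hochberg adjustment over all genes and a threshold of 0.05. An exact permutation test of 3 arrays against 3 cannot go below p = 0.1 and was not used. The number of arrays limits the precision. On simulated data with the real means and spread over 27365 genes, the test called 33 of 100 genes changed by 0.5 log2 and 88 of 100 changed by 1 log2, with 5 false calls. The simulated spread was that between these arrays, which may be only technical, and genes were drawn independently. These calls therefore do not show how often a change across cultures or animals would be found. The antigenomic background was the mean of 23 probe sets per array.

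The members, gene lists and naming rule were chosen with earlier results of these data known. Named were the isoform sets and catalytic subunits whatever their values, in complexes I, III, IV and V the 2 genes above background with the largest change in each direction, all with an unadjusted p below 0.05, and the smallest p of each related list. Ndufa4 was counted with complex IV. Alternatives were other choices of cluster, scaling, filters, variance models, a replicate block, a plain t-test, the other deposited table and leaving out each array. The preadipocyte and fibroblast markers summed to an intensity of 2540 to 2830 with kynurenic acid and 2510 to 2690 with PBS, the muscle markers to 106 to 135 and 119 to 125, and the erythroid markers to 21.9 to 24.8 and 20.4 to 22.2.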

Additional observations from a re-analysis of the deposited data

How the results depend on the processing

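In all 18 alternatives 0 genes, and so 0 of the 81, passed limma or the plain t-test after adjustment; the plain t-test gave 2156 genes with an unadjusted p below 0.05. The median change of the 81 genes stayed above 0, from 0.017 with arrays centred on their medians, which moves the median of all genes to -0.017, to 0.073. At an unadjusted p below 0.05, against 1 gene higher and 4 lower, there were 2 higher with every cluster as its own row. There were 3 higher with cyclic loess, 5 with an intensity trend (7 lower), 4 with the replicate block and 2 with the plain t-test. With every cluster as its own row the share was 8.42% of 95 clusters, against 9.7% of all clusters. With the replicate block it was 9.88% of the 81 genes, against 10.6% of all genes, and with the plain t-test 6.17%, against 7.88%. Leaving out single arrays gave 0 to 4 higher and 1 to 4 lower. Same-numbered arrays correlated at 0.0366, 0.0652 and 0.0927 in their deviations, too little to treat the numbers as pairs, although each array correlated best with its own number. The median of complex V was 0.042 with cyclic loess and -0.013 with median centring, and that of complex III was -0.0033 to 0.10 with single arrays left out.

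Signs changed: with median centring Atp5a1 to -0.0067, Atp5b to -0.013 and Sdhb to -0.0033; with cyclic loess Sdha to 0.0046 and Uqcrfs1 to 0.030; on the gene's own locus and strand, an alternative chosen after seeing the data, Cox6c to 0.14 and Cox7b to -0.037. With single arrays left out Cox4i2 ran from -0.11 to 0.005, Cox7b2 ran from -0.072 to 0.17, Uqcrfs1 ran from -0.07 to 0.06, Sdhb ran from -0.037 to 0.10, Cox7a2 ran from -0.012 to 0.17, Sdha ran from -0.063 to 0.0067. Causes were not tested. An unadjusted p below 0.05 held for Atp5s in 17 of 17 alternatives, Cox4i1 in 15, Cox7c in 13, Atp5sl in 12 and Atp5h in 11. The rerun on the other deposited table used the same values, so it could not differ from the main fit. Other choices of cluster kept the same row for all of these genes but Atp5h. The genes were picked by the p of the main fit, so these tallies are not independent support. Dim-gene filters removed Cox6b2, Cox7b2 and Cox8c, and precision is limited by 3 arrays a group and, for genes near background, by signal.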
